A study of Drosophila melanogaster with 19 samples.

Results

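The genes described here are 9 genes of the zona pellucida (ZP) domain family, not all of it, listed as genes of the apical extracellular matrix of Drosophila epithelia. They are 9 of the 12679 FlyBase gene rows on the arrays. They were chosen by identifier and not by any measured value. The members are miniature (m, FBgn0002577), dusky (dy, FBgn0004511), dusky-like (dyl, FBgn0066365), nyobe (nyo, FBgn0039852), morpheyus (mey, FBgn0039851), piopio (pio, FBgn0020521), dumpy (dpy, FBgn0053196), trynity (tyn, FBgn0029128) and quasimodo (qsm, FBgn0028622). All 9 had a value on each of the 19 arrays, and no filter on low values was applied.

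The study profiled RNA from Drosophila embryos in mid to late embryogenesis in which the transcription factor Tramtrack (Ttk) was lost or gained, as whole embryos and as cells sorted for red fluorescence. In the mutant experiment, run at 25 °C, embryos labelled ttk mutant carried the ttk2D50 loss-of-function allele (2 arrays) and were set against btl-enh-RFPmoe controls (2 arrays), with sorted cells of the ttk mutant (2 arrays) and of the controls (3 arrays). In the over-expression experiment, run at 29 °C according to the labels, embryos carried btl-GAL4 and UAS-ttk (3 arrays) or btl-GAL4 alone (3 arrays), with sorted cells of each (2 arrays each). The study's methods name 25 °C alone for the egg collections, and a driver line that also carries UAS-tau-GFP, which the labels leave out. All animals, controls included, carried btl-enh-RFPmoe, a membrane-tethered red fluorescent protein driven by an enhancer of breathless (btl). Extraction of cell RNA started from 100000 sorted cells, and the study pooled RNA from different sorting runs within a week. Mutant embryos were recognised by the absence of the green fluorescence of a twi-GFP balancer chromosome. The driver and the reporter are active in the trachea and the ventral midline, and the study's authors also saw the reporter in lateral ectoderm, endoderm and amnioserosa, so a sort is a mixture. Each whole-embryo RNA came from a pool of many embryos. In the labels the control cells of btl-GAL4 embryos carry the strain name of the mutant, which goes against their titles, and they were grouped by title.

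ZP domain proteins are secreted or membrane-anchored and polymerise through their ZP domain into filaments of the matrix that lies between the apical cell surface and the cuticle. In embryonic epidermis different members are laid down in separate zones of each forming denticle, where they give the cell apex its shape. In the trachea, Dumpy and Piopio fill and line the tube lumen and attach the epithelium to the matrix, and loss of either breaks up fine branches as cells rearrange. Miniature and Dusky are best known from the shape of wing cells, Dusky-like, Nyobe, Morpheyus and Trynity from denticles and bristles, and Quasimodo from light input to clock neurons in the adult brain. The genes nyo and mey are direct neighbours in the genome, and 1 protein-coding gene lies between m and dy in the RefSeq annotation of Release 6.

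Values are log2 expression as deposited, and a difference of 1 means a change by a factor of 2. Array medians lay apart between groups of an experiment, at 7.59 to 7.69 in ttk mutant embryos, 7.43 to 7.44 in their controls, 6.17 to 6.24 in ttk mutant cells and 6.84 to 6.97 in control cells. In the over-expression experiment medians were 9.20 to 9.29 in ttk over-expression embryos, 9.20 to 9.24 in control embryos, 8.23 to 8.30 in ttk over-expression cells and 8.16 to 8.19 in control cells. Fold changes called in the main fits are therefore also given relative to the array median, called centred below. There every array is set to its own median before the test. Other values are as deposited unless said to be centred. A gene was called when its log2 fold change was at least 1 in either direction at an unadjusted p of at most 0.05, which is the rule of the study, and p-values adjusted by Benjamini and Hochberg over all 12679 genes in limma stand beside it. In bulk samples fewer cells of a type and less RNA per cell cannot be told apart. The targeted gene did not follow its labels: ttk was at 11.43 and 11.19 in embryos labelled ttk mutant, against 11.27 and 8.83 in controls, and at 10.49 and 10.42 in cells labelled ttk mutant, against 10.33, 10.35 and 10.23 in control cells. It was at 12.06, 11.57 and 12.19 in embryos labelled ttk over-expression, against 12.39, 12.39 and 12.38 in controls, and at 11.19 and 11.32 in cells labelled ttk over-expression, against 11.89 and 11.99 in control cells. How much RNA the allele leaves, and which part of ttk the probes read, was not tested. The second control embryo array of the mutant experiment stood apart, with ttk, dpy and tyn each more than 2 log2 units below the first, and values without it are given where a comparison with these controls turned on it.

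As deposited, the lowest group mean was that of ttk mutant cells for 8 of the 9 members, all but dpy, for which it was that of the mutant control embryos. The highest mean was that of a whole-embryo group of the over-expression experiment for 8 members, all but dy. Relative to the array medians, ttk mutant cells still had the lowest mean for m, dy, dyl, mey and qsm (5 of 9). The highest centred mean was that of the mutant control embryos for m, dyl, nyo, mey and qsm (5 of 9), of the over-expression control cells for pio and dpy, of the ttk over-expression cells for dy and of the mutant control cells for tyn. Levels of the 2 experiments cannot be compared as biology, because the driver, the array medians and, by the labels, the temperature differ with the experiment and cannot be told apart. The ranges of single arrays over all 19 were 3.33 to 6.64 for pio, 5.64 to 10.20 for dpy, 7.16 to 12.69 for m, 7.24 to 11.78 for dy, 6.65 to 11.94 for dyl, 7.06 to 11.69 for nyo, 6.42 to 11.58 for mey, 8.38 to 12.88 for tyn and 7.37 to 11.44 for qsm. The gene pio, which encodes the lumenal partner of Dumpy, lay below the array median in every group, with group means of -2.03 to -2.84 relative to it.

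**Figure D1:**
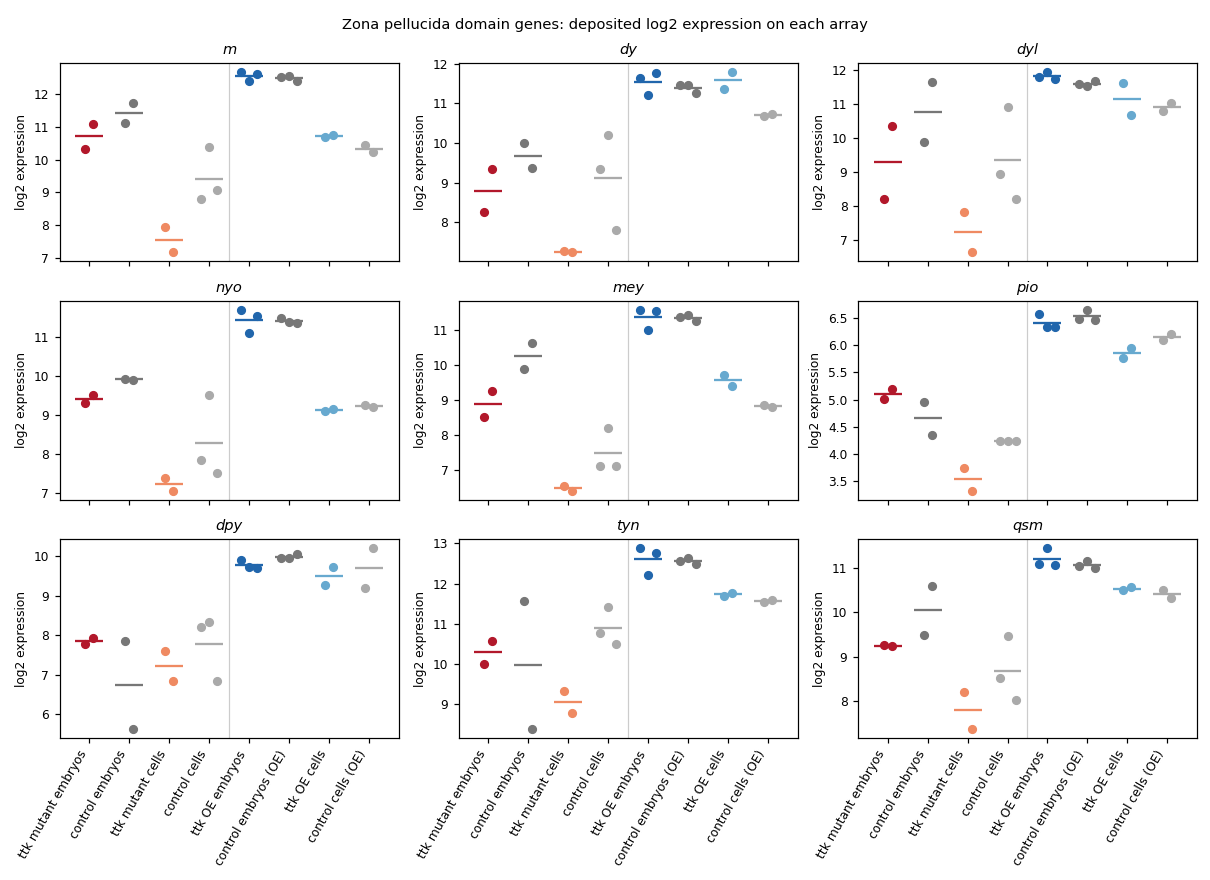
Deposited log2 expression of each ZP domain gene (vertical axes, own scale for each gene) on every array, with the mutant experiment left of the grey line and the over-expression experiment (OE) right of it. Points are arrays and horizontal bars group means (n = 2 or 3); the 3 control cell arrays of the mutant experiment spread widely for dy, dyl and nyo, and m, nyo and mey lie lower in sorted cells than in embryos of the same genotype.

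In whole embryos labelled ttk mutant, mey was the only member called, at a lower level than in controls. It had 8.53 and 9.27 in ttk mutant embryos, against 9.89 and 10.65 in controls, so that the groups did not overlap. The log2 fold change of mey, which encodes a ZP protein of the denticle, was -1.37 (SE 0.45, unadjusted p = 0.041, limma adjusted p = 0.37) and -1.57 centred (unadjusted p = 0.021, limma adjusted p = 0.46). Among all genes 1.39% were called lower as deposited and 3.20% centred, against 8.44% called higher, a direction in which no member was called. Of the other 8 members, m, dy, dyl, nyo and qsm had negative fold changes, between -0.51 for nyo and -1.47 for dyl, and pio, tyn and dpy positive ones, at 0.45, 0.31 and 1.10. None of these 8 passed the rule. The median over the 9 members was -0.71, against 0.19 over all genes, and the arrays of mutants and controls did not overlap for 6 of 9 members, against 56.2% of all genes.

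These values turned on the control embryos, whose 2 arrays disagreed. The gene tyn, another denticle ZP protein, was at 11.58 on the first control array and 8.38 on the second, with the ttk mutant embryos between them at 10.00 and 10.57. Likewise dpy was at 7.87 and 5.64 in controls, against 7.78 and 7.92 in ttk mutant embryos. In contrast, m, dyl, mey and qsm were higher on the second control array than on the first. Without the second control array mey was at -0.99, short of the rule's threshold of 1, tyn at -1.29, qsm at -0.24 and dpy at -0.02. Without the first control array mey was at -1.75, qsm at -1.35, dpy at 2.21 and tyn at 1.91. With a single control array left, no calls are given for these fits. The direction of tyn in ttk mutant embryos thus depended on which control array was kept. For nyo, whose control arrays were at 9.92 and 9.90, the fold change was -0.52 without the second and -0.49 without the first control array, with 9.30 and 9.50 in ttk mutant embryos, and it passed the rule in neither case.

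In sorted cells the fold change against controls was negative for all 9 members, between -0.57 for dpy and -2.13 for dyl, with a median of -1.07. All genes shifted the same way, with a median of -0.67 and 90.0% of genes negative, and 20.1% of all genes were called lower against 2.31% called higher. Only m and tyn were called, so 2 of 9 members stand against that 20.1%. The gene m was at 7.93 and 7.16 in ttk mutant cells, against 8.79, 10.38 and 9.07 in control cells, with no overlap. Its fold change was -1.87 (SE 0.58, unadjusted p = 0.030, limma adjusted p = 0.058), and centred it was -1.18 (unadjusted p = 0.059), which did not pass. The gene tyn was at 9.31 and 8.76 in ttk mutant cells, against 10.78, 11.43 and 10.49 in control cells, again with no overlap. Its fold change was -1.86 (SE 0.35, unadjusted p = 0.0051, limma adjusted p = 0.020), and of the members only tyn was called also on the centred scale, at -1.18 (SE 0.31, unadjusted p = 0.011, limma adjusted p = 0.10), where 4.57% of all genes were called lower.

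Relative to the array medians, the fold changes of m, dy, dyl and tyn in ttk mutant cells lay between -1.18 and -1.44 (by a factor of 2.26 to 2.72), those of nyo, mey and qsm between -0.20 and -0.39, and those of pio and dpy were -0.01 and 0.11. For dy and dyl the control cells spread too widely for a call: dy was at 7.27 and 7.24 in ttk mutant cells, against 9.34, 10.20 and 7.82 in control cells (unadjusted p = 0.065 as deposited and 0.13 centred, limma). For dyl the values were 7.84 and 6.65 in ttk mutant cells, against 8.96, 10.91 and 8.23 in control cells (unadjusted p = 0.083 as deposited, limma). In neither gene did the groups overlap, but the lowest control array lay within 1 log2 unit of the higher array of mutant cells. The adjusted p of pio was 0.028 in limma at a fold change of -0.69 (SE 0.16), which is close to the shift of all genes. The value of pio was the same, 4.23, on all 3 control cell arrays, one of 3325 genes with equal values on control cell arrays, so the test had no spread of its own in that group. At an adjusted p of 0.05 the members passing were tyn and pio, 2 of 9, beside 47.2% of all genes. The groups did not overlap for 7 of 9 members, against 75.6% of genes.

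The calls in sorted cells depended on single arrays. Without the second array of ttk mutant cells, which was the lower one for all 9 members, neither m (-1.48, unadjusted p = 0.20) nor tyn (-1.59, unadjusted p = 0.059, both limma) was called. Without the first array of ttk mutant cells only tyn was called (-2.14). Without the third control array 4 members were called lower, tyn at -2.06, dy at -2.51, dyl at -2.70 and dpy at -1.05. There m at -2.03 was not called (unadjusted p = 0.051 in limma). The share of all genes called in that fit is not given, so this count is no result about the members. The fold change of tyn was between -1.59 and -2.14 over the 5 fits that each left out 1 array. Of the tracheal and midline markers, trh differed by -0.78 between ttk mutant and control cells as deposited and by -0.09 centred, dys, which marks tracheal fusion cells, by -1.42 and -0.73, sim by -0.86 and -0.17 and btl by 0.17 and 0.85. Of these 4 none passed an adjusted p of 0.05 on either scale, and their part in the changes of m and tyn was not tested.

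In embryos with ttk over-expression no member was called in either direction, beside 2.48% of all genes called higher and 0.639% called lower. The fold changes lay between -0.21 for dpy and 0.23 for dyl, with a median of 0.06, against -0.07 over all genes. The interval estimates were narrow: over the 9 members the lowest bound of a 95% confidence interval was -0.44, for dpy, and the highest 0.55, for dy. Thus m was at 12.69, 12.42 and 12.62 in ttk over-expression embryos, against 12.54, 12.57 and 12.41 in controls, and tyn at 12.88, 12.21 and 12.76, against 12.56, 12.63 and 12.48 in controls. For mey the values were 11.58, 11.02 and 11.55 in ttk over-expression embryos, against 11.40, 11.44 and 11.26 in controls. The groups overlapped for all of these. The only members without overlap were dpy, with 9.70 to 9.90 in ttk over-expression embryos, against 9.96 to 10.05 in controls, and dyl, with 11.72 to 11.94 in ttk over-expression embryos, against 11.53 to 11.66 in controls. That is 2 of 9 members, against 38.9% of all genes.

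In sorted cells with ttk over-expression no member was called either, beside 1.85% of all genes called higher and 0.686% called lower. The largest fold changes were those of dy and mey. The gene dy was at 11.37 and 11.78 in ttk over-expression cells, against 10.67 and 10.72 in control cells, a fold change of 0.88 (SE 0.19, unadjusted p = 0.010, limma adjusted p = 0.30). The gene mey was at 9.73 and 9.41 in ttk over-expression cells, against 8.87 and 8.82 in control cells, a fold change of 0.73 (SE 0.17, unadjusted p = 0.012, limma adjusted p = 0.31). Neither pair of groups overlapped, and the centred fold changes were 0.79 and 0.63, but both stayed below the rule's threshold of 1. The other members lay between -0.29 for pio and 0.39 for m, and the precision was poorest for dpy, with a 95% confidence interval of -1.34 to 0.94. Groups did not overlap for 6 of 9 members, against 46.0% of all genes. The neighbours nyo and mey differed in their values here, since nyo was at 9.09 and 9.14 in ttk over-expression cells, against 9.24 and 9.21 in control cells (-0.11, 95% confidence interval -0.44 to 0.23), while the interval of mey was 0.26 to 1.19. The difference between these genes was not tested.

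**Figure D2:**
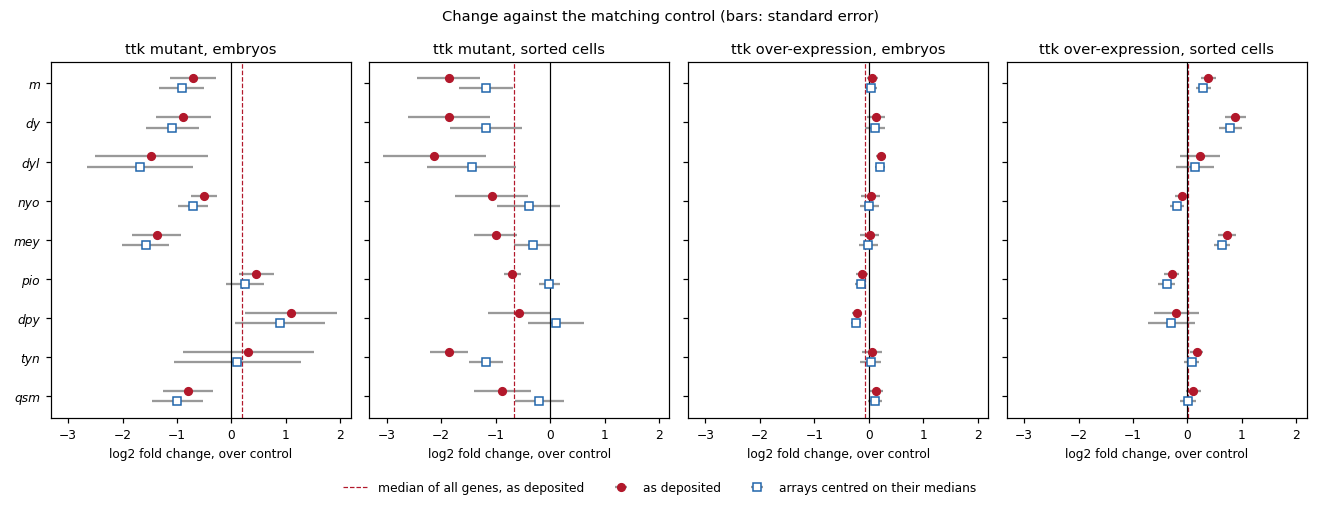
Log2 fold change of each ZP domain gene against the matching control (horizontal axis) for ttk mutant and ttk over-expression embryos and sorted cells, with the standard error as bars. Filled circles are values as deposited, open squares values with every array centred on its median, and the dashed line the median of all genes as deposited; in ttk mutant cells that line is at -0.67, and centring moves pio and dpy to about 0 but leaves m, dy, dyl and tyn below -1.

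The change in the ttk mutant was set against the change with ttk over-expression in 1 fit over both experiments. In embryos no member differed at an adjusted p of 0.05, beside 6.48% of all genes, and the difference of mey was -1.39 (SE 0.43, limma adjusted p = 0.085). Without the second control embryo array of the mutant experiment again no member passed, and mey was at -1.01 (limma adjusted p = 0.15) and tyn at -1.35 (limma adjusted p = 0.064). In sorted cells tyn differed by -2.03 (SE 0.43, limma adjusted p = 0.020) and mey by -1.73 (SE 0.49, limma adjusted p = 0.043), both more negative in the ttk mutant, beside 25.3% of all genes. The genes m (-2.25, limma adjusted p = 0.052) and dy (-2.74, limma adjusted p = 0.061) had larger differences with more spread. The median difference over all genes was -0.66, and on the centred scale no member passed, beside 3.52% of genes, with tyn at -1.26 (limma adjusted p = 0.14) and mey at -0.96 (limma adjusted p = 0.29). The change in sorted cells was also set against the change in embryos within each experiment. In the mutant experiment no member differed at an adjusted p of 0.05, beside 15.4% of all genes, with pio nearest at -1.15 (limma adjusted p = 0.061). The value of pio was the same on all its control cell arrays, so that group added no spread to the fit. Without the second control embryo array no member passed either, and pio was at -0.85 (limma adjusted p = 0.061). In the over-expression experiment no member differed, beside 0.0710% of all genes, and the largest differences were those of dy (0.74, unadjusted p = 0.025) and mey (0.71, unadjusted p = 0.027, limma adjusted p = 0.41).

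Sorted cells were also compared with whole embryos of the same genotype. Material and preparation go together in this comparison and cannot be told apart. The study dissociated cells with trypsin before sorting, and extracted RNA with Trizol from embryos but with an RNeasy kit from cells. For the mutant experiment its supplement reports lower signal and more noise in cells, which might come from less input and stronger amplification. In all 4 genotypes m, nyo and mey had negative log2 differences between cells and embryos on both scales. In the over-expression controls m was at 10.44 and 10.23 in sorted cells, against 12.54, 12.57 and 12.41 in embryos. There nyo was at 9.24 and 9.21 in sorted cells, against 11.48, 11.39 and 11.36 in embryos, and mey at 8.87 and 8.82 in sorted cells, against 11.40, 11.44 and 11.26 in embryos. No array of cells reached the level of any embryo array for these genes. Groups did not overlap for 8 of 9 members here, beside 86.3% of all genes, so this does not set m, nyo and mey apart. The log2 differences were -2.17 (SE 0.09) for m, -2.18 (SE 0.07) for nyo and -2.52 (SE 0.08) for mey, with limma adjusted p-values of 3.0e-05, 2.3e-05 and 2.3e-05, and centred they were -1.12, -1.13 and -1.47, all called. These were the 3 members called lower as deposited, beside 34.0% of all genes. The other 6 members were closer to the shift of all genes, whose median was -0.62: dy, dyl, qsm, pio and dpy lay between -0.29 and -0.70 and tyn at -0.998. At an adjusted p of 0.05 8 members passed as lower, all but dpy, beside 78.5% of all genes. Centred, pio (0.66), qsm (0.40), dyl (0.37) and dy (0.35) passed an adjusted p of 0.05 as higher in cells, beside 77.5% of all genes in either direction, so the sign of these 4 genes turned with the scaling.

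With ttk over-expression the same comparison gave m at 10.69 and 10.75 in sorted cells, against 12.69, 12.42 and 12.62 in embryos, nyo at 9.09 and 9.14 in cells, against 11.69, 11.09 and 11.55 in embryos, and mey at 9.73 and 9.41 in cells, against 11.58, 11.02 and 11.55 in embryos. The differences were -1.85 (SE 0.16) for m, -2.32 (SE 0.22) for nyo and -1.81 (SE 0.24) for mey, all called, beside 27.1% of all genes. On the centred scale nyo was called (-1.34), beside 7.23% of genes, while m (-0.87) and mey (-0.83) passed an adjusted p of 0.05 only, at 0.016 and 0.047 in limma, beside 40.8% of genes. The gene dy, at 11.37 and 11.78 in cells, against 11.64, 11.20 and 11.76 in embryos, was level as deposited (0.04) and called higher centred (1.03, unadjusted p = 0.012, limma adjusted p = 0.034), beside 20.4% of genes. At an adjusted p of 0.05 as deposited 6 members were lower, beside 38.6% of genes.

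In the mutant experiment the control cells were again low in m and mey. In the controls mey was at 7.13, 8.21 and 7.13 in sorted cells, against 9.89 and 10.65 in embryos (-2.78, SE 0.47, unadjusted p = 0.0031, limma adjusted p = 0.064), and m was at 8.79, 10.38 and 9.07 in cells, against 11.12 and 11.72 in embryos (-2.01, SE 0.57, unadjusted p = 0.021, limma adjusted p = 0.12). Both were also called centred, at -2.23 and -1.46, beside 14.3% of all genes called lower as deposited and 4.36% centred. For nyo the difference was -1.62 (unadjusted p = 0.068), with 7.84, 9.50 and 7.52 in cells, against 9.92 and 9.90 in embryos. Without the second control cell array nyo was called at -2.23 and qsm at -1.76, beside m and mey. The share of all genes called in that fit is not given, so these calls are no result about the members. In contrast, m was not called without the first or without the third control cell array. The call of mey held without each control cell array, and its difference was -2.40 to -3.16 over the 5 fits that each left out 1 array.

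In the ttk mutant all 9 members were lower in cells than in embryos as deposited, beside 92.8% of all genes, whose median was -1.25. The groups did not overlap for any of the 9 members, beside 91.8% of genes. Centred, the groups did not overlap for 4 of 9 members, beside 72.6% of genes. By the rule 7 of 9 members were called lower, all but dpy and dyl, beside 61.1% of all genes, and the same 7 passed an adjusted p of 0.05, beside 80.8% of genes. The gene m was at 7.93 and 7.16 in ttk mutant cells, against 10.32 and 11.10 in ttk mutant embryos (-3.17, SE 0.39, limma adjusted p = 0.0026). It was at -1.73 centred, the only member called there, beside 10.9% of genes, while mey (-0.98, limma adjusted p = 0.045) and nyo (-0.76, limma adjusted p = 0.0498) passed an adjusted p of 0.05 only, beside 31.0% of genes. The centred differences of pio, dy, tyn and qsm lay between -0.14 and 0.18. Over the 4 genotypes the centred differences thus ranged from -0.87 to -1.73 for m, from -0.76 to -1.34 for nyo and from -0.83 to -2.23 for mey, where the values of the mutant controls include the embryo array that stood apart.

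Markers of the sorted and of other tissues were read in the same comparisons. The mesoderm gene twi had log2 differences between cells and embryos of -2.69 in the ttk mutant, -1.36 in mutant controls, -2.05 with ttk over-expression and -2.90 in over-expression controls as deposited, and the muscle gene Mef2 of -0.73 to -1.97. The tracheal gene trh had differences of -0.28 in the ttk mutant, 1.06 in mutant controls, 0.93 with ttk over-expression and 1.05 in over-expression controls, and of 1.15 to 2.10 centred. The tracheal and midline markers btl, dys and sim are not given for this comparison, so trh alone does not describe the sorts. The haemocyte and fat body gene srp had differences of 0.56 to 2.64, and those of Adp, a fat body gene, lay between -0.26 and -0.88. Whether the composition of the sorts or their preparation sets the low level of m, nyo and mey was not tested, and this design cannot tell them apart.

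**Figure D3:**
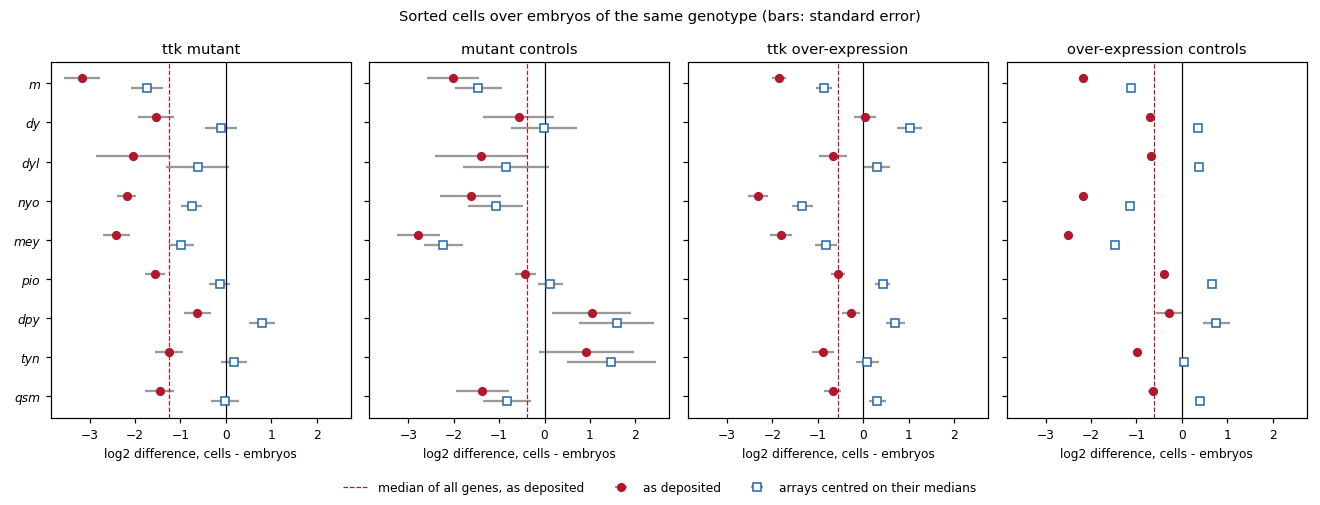
Log2 difference between sorted cells and whole embryos of the same genotype (horizontal axis) for each ZP domain gene, with the standard error as bars, as deposited (filled circles) and with arrays centred on their medians (open squares). The dashed line is the median of all genes as deposited; m, nyo and mey lie left of 0 on both scales in all 4 genotypes.

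Members moved together between arrays of the same group. When every array was centred and set against its group mean, the correlation of these deviations over the 19 arrays had a median of 0.51 over the 36 pairs of members, with 24 pairs above 0, against a median of 0.10 over all pairs of genes. It was highest for m with mey (0.86), m with dyl (0.83), dyl with mey (0.83), m with nyo (0.80) and dpy with tyn (0.83). The members m, dy, dyl, nyo, mey and qsm correlated among each other at 0.36 to 0.86 (15 pairs, median 0.73) and pio, dpy and tyn at 0.72 to 0.83 (3 pairs), while the median between these sets was -0.04 over 18 pairs. These sets were read from the same values and have no test, and arrays of a group share their preparation. In a group of 2 arrays the deviations are equal and opposite, so there are fewer independent values than arrays. The pattern of the first set came from the mutant experiment, with a median of 0.77 over its 9 arrays, against -0.21 over the 10 arrays of the over-expression experiment. For pio, dpy and tyn the medians were 0.84 in the mutant and 0.61 in the over-expression experiment. The separation of pio, dpy and tyn rested on the mutant control embryos. Without these 2 arrays the median between the sets was 0.50 and that among pio, dpy and tyn 0.39.

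In the mutant experiment the deviations followed single arrays. The second control cell array was the highest of 3 for 8 of 9 members, all but pio, beside 21.7% of all genes, and the third was the lowest for 6, beside 20.9% of genes. On that second array dyl lay 1.46 above its centred group mean, nyo 1.13, dy 0.99 and m 0.88. The first array of ttk mutant cells was the higher one for all 9 members, beside 47.1% of genes, and the second array of ttk mutant embryos the higher one for 8, beside 38.5% of genes. In the mutant control embryos tyn deviated by 1.61 and dpy by 1.12 upward on the first array and downward on the second, while dyl deviated by 0.88 the other way. In the over-expression experiment the largest deviation was 0.51, of dpy in control cells at 9.21 and 10.20.

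**Figure D4:**
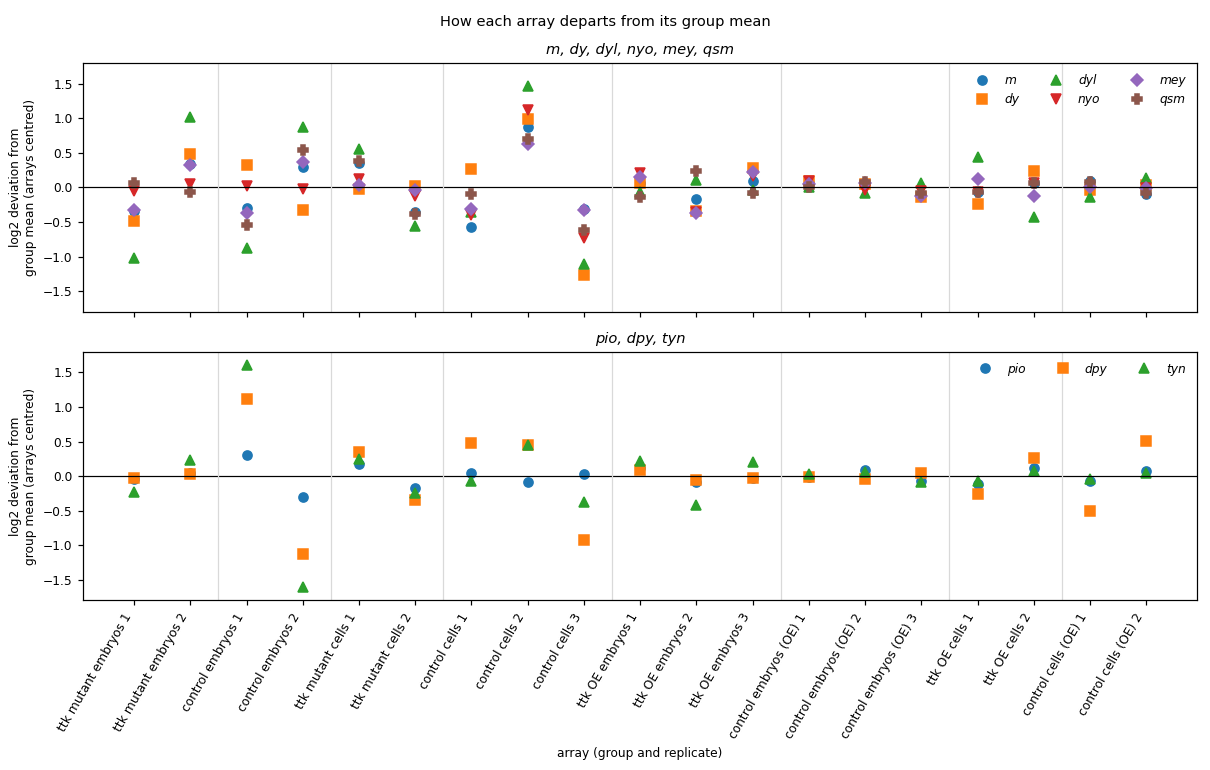
Deviation of each array from its group mean (vertical axis, log2, arrays centred on their medians) for m, dy, dyl, nyo, mey and qsm (upper panel) and for pio, dpy and tyn (lower panel), over the 19 arrays (horizontal axis; OE, over-expression experiment). In the upper panel all points of the second control cell array of the mutant experiment lie above 0 and those of the third below 0; in the lower panel the control embryos of the mutant experiment carry the largest deviations, up to 1.61 for tyn.

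Across all 19 centred arrays, levels of m were most like those of mey among the members (r = 0.91), and mey was the gene with rank 10 of 12678 in likeness to m, while m had rank 18 in likeness to mey. The best match of nyo was m (r = 0.87, rank 12), that of qsm was dyl (r = 0.81, rank 43) and that of dyl was qsm (rank 120). The gene dy was most like dyl (r = 0.68, rank 126), tyn most like dpy (r = 0.71, rank 131), dpy most like tyn (rank 479) and pio most like dpy (r = 0.64, rank 605). Levels of dpy and mey ran against each other (r = -0.55). These correlations carry the differences between cells and embryos and between the experiments, and arrays of a group are not independent of them. Whether probes of the related genes nyo and mey, or m and dy, read each other's RNA was not tested.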

How the data were processed

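RNA of 19 samples was amplified and hybridised by the authors to 1-colour Affymetrix Drosophila Genome arrays and summarised per FlyBase gene with an ENSEMBL-based chip definition. The submitters' notes name RMA. The deposited values were taken as log2 from their range. Array medians differ between groups, and the study's supplementary text says that groups were not normalised to each other at an early step. The 182 control features were left out and 12679 genes tested. Tests were two-sided, by limma (version 3.58.1, R version 4.3.3) with default moderation, and each used only arrays of the 2 groups compared, or of 4 groups for a difference of changes. The fits were checked on simulated data. Groups hold 2 or 3 arrays, and their number limits the precision. Replicates are separate pools of embryos or of RNA from sorted cells, and p-values measure the spread between them.

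All 9 members are named. Array values are given for members called in a comparison with a control or on which a result turns, with ranges for the others, and likeness is Pearson's r over the centred arrays. The members and lists were chosen with earlier results of these data known. Of 28 other genes listed (other ZP domain genes, Shavenbaby and shape genes, matrix partners, other cell types), 0 could be paired with a row of the table by the reference used, and no values are given for them. No sequences were used. Alternatives were centring, quantile normalization, leaving out genes below the 25th percentile of the mean, all 4 groups in one fit, blocking on the replicate number, a trend of the variance with intensity and each array left out.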

Additional observations from a re-analysis of the deposited data

Results flagged for a closer look

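The change against control differed between the ttk mutant and ttk over-expression in sorted cells for tyn (-2.03, limma adjusted p = 0.020) and for mey (-1.73, limma adjusted p = 0.043). These were 2 of 9 members, beside 25.3% of the 12679 genes in the same test. The share of members was thus no higher than that of genes at large, and the result does not set the members apart. For tyn the fold changes were -1.86 in ttk mutant cells and 0.17 in ttk over-expression cells, and for mey they were -1.002 and 0.73. Over the 9 fits that each left out 1 array, the difference of tyn lay between -1.75 and -2.31 and that of mey between -1.37 and -1.91. The difference of tyn passed an adjusted p of 0.05 in 5 of these 9 fits and that of mey in 3, with adjusted p-values in limma of up to 0.072 and 0.12. On centred arrays neither passed, with tyn at -1.26 (limma adjusted p = 0.14) and mey at -0.96 (limma adjusted p = 0.29). Groups hold 2 or 3 arrays, too few for a test of single outlying arrays.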

How the results depend on the processing

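In ttk mutant embryos 1 member was called, and 2 with the replicate block, which added dyl (-1.47, unadjusted p = 0.015 in limma). There, each fit without a single array leaves 1 array in a group, so no count is given for these fits. In ttk mutant cells 2 were called, 1 after centring and 1 after quantile normalization, and 0 to 4 without single arrays. The 2 members were m and dy, not tyn, with all 4 groups in one fit (dy at unadjusted p = 0.029, tyn at 0.065) and tyn and dy, not m, with the replicate block (dy at unadjusted p = 0.0069, m at 0.082, all limma). With ttk over-expression 0 were called under every alternative, apart from 1 (dy) in sorted cells without the first over-expression cell array (0 to 1 without single arrays). The counts under alternatives in this section stand without the share of all genes in the same fits, so they are no result about the members. Between cells and embryos the count was 7 in the ttk mutant, 1 after centring and 1 after quantile normalization. In mutant controls it was 2, 4 with all 4 groups in one fit and 1 to 4 without single arrays. In the test of the mutant change against the over-expression change in sorted cells 2 members differed, 0 after centring, 0 after quantile normalization, 0 with the replicate block, 4 with an intensity trend, and 0 to 4 without single arrays. In embryos that count was 0, and 0 to 7 without single arrays, and in the test of cells against embryos in the mutant experiment 0, and 0 to 3 without single arrays. The 7 and the 3 came without the first control embryo array of the mutant experiment, which leaves the array that stood apart as its only control embryo array, and the count was 0 without each other array in both tests.

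Among fold changes past a threshold, signs turned only under centring and quantile normalization, while some that were not past one, such as tyn in ttk mutant embryos (-1.29 without the second control embryo array), turned without single arrays too. In ttk mutant cells against controls pio was at 0.074 after quantile normalization. Between cells and embryos of the ttk mutant tyn was at 0.18 centred and 0.14 after quantile normalization. In the over-expression controls pio was at 0.66 centred and 0.62 after quantile normalization, and dy at 0.35, dyl at 0.37, tyn at 0.051 and qsm at 0.40 centred. With ttk over-expression pio was at 0.43 centred and 0.39 after quantile normalization, and tyn at 0.094 and qsm at 0.31 centred. Over all fold changes of members past a threshold, 233 of the refitted values kept direction and call, 78 lost the call and 13 turned.

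Replicate numbers were not taken to pair the arrays: in the only comparison with 3 shared numbers, embryos with ttk over-expression and their controls, same-numbered arrays deviated with correlations of -0.32, 0.35 and 0.41. With 2 shared numbers they were 0.46 in ttk mutant embryos, 0.13 and -0.38 in ttk mutant cells, 0.11 in ttk over-expression cells, 0.16 and 0.43 between cells and embryos of mutant controls, and -0.13 and 0.052 in over-expression controls. Beside the counts above, the block moved no count of members by more than 1.5 times. In the ttk mutant, where same-numbered cells and embryos deviated at -0.27, crossing the numbers, a pairing added after the data were seen, gave 8 calls. With 2 or 3 arrays per group, the precision was limited in the mutant experiment above all, where the SD between control embryo arrays had a median of 0.41 over genes, while it was 0.08 between control embryo arrays of the over-expression experiment.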
